A study of Mus musculus with 2 samples.

Results

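The microsomal steroid hydroxylases and the proteins that hand them electrons were described in the newborn mouse adrenal gland. The set was a named list of 8 genes out of 55536 annotated genes. It held the hydroxylases Cyp21a1 and Cyp17a1, the P450 reductase Por, the cytochromes b5 Cyb5a and Cyb5b, the cytochrome b5 reductase Cyb5r3, and the heme-binding membrane proteins Pgrmc1 and Pgrmc2. All 8 were found by symbol, and the list is given by name, with no threshold on a measured value.

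Steroid hydroxylases of the endoplasmic reticulum are P450 enzymes that need electrons one at a time. The diflavin reductase encoded by Por passes them from NADPH to the P450, while cytochrome b5 can pass an electron of its own, taken from Cyb5r3 or Por, or can alter the P450 by binding to it. In the adrenal cortex CYP21A1 hydroxylates progesterone on the way to corticosterone and aldosterone, CYP17A1 opens the route to cortisol and androgens, and the remaining hydroxylases sit in mitochondria with a separate electron chain of FDXR and FDX1. The adult mouse adrenal makes corticosterone as its main glucocorticoid.

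The study measured total RNA by sequencing in adrenal glands of 2 female mice, 1 library each, at 4 days of age. Both animals were B6CASTF1/J, the first-generation hybrids of C57BL/6J and CAST/EiJ, with no treatment and no engineered allele named in the labels, and they formed 1 group of 2 replicates. The alleles of the 2 parental strains were not separated in the tables. The labels disagree on the animal behind replicate 2, which is numbered like replicate 1 in the library text and differently in the tissue text, and both samples share 1 donor record. Whether the replicates came from separate animals therefore rests on their biosample and replicate numbers, and the spread between them may be partly technical. With 1 group there was no condition to test, so levels are given per replicate, and differences between replicates are described by their size.

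The libraries held 31838341 and 32931868 expected counts in replicates 1 and 2, of which the ERCC spike-ins took 0.90% and 0.92%. A count of 0 would allow a share of gene counts of up to 9.51e-06% and 9.19e-06%, which is 3 counts of the total and covers counting error only. All 7 adrenal cortex markers and all 5 chromaffin markers were at 1 TPM (a level scaled for transcript length and library size) or more in both replicates, as the labelled tissue would have them. Markers of neighbouring organs differed between the libraries. All 5 pancreas markers were higher in replicate 1, with a summed level of 3401 TPM there against 0.49 TPM in replicate 2, where 3 of the 5 (Cela2a, Ins1 and Ins2) were at 0. Of 10 kidney markers, the 8 whose counts averaged 100 or more were each higher in replicate 1, with 131 TPM over the 10 there against 13.7 TPM in replicate 2. The 7 liver markers of 8 past that count and all 6 skeletal muscle markers were lower in replicate 1 (119 TPM for liver and 338 TPM for muscle, against 492 and 2110 TPM in replicate 2). In whole tissue, fewer cells of a type and less RNA per cell cannot be told apart, and this holds for each value that follows.

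Several members have a copy or a relative in the genome, and the bases that separate a pair bear on how reads are shared out. The sequences shown are those of mm10. The bases of the CAST/EiJ alleles at these positions were not examined. Cyp21a1 lies on the minus strand at chr17:34801348-34804561 of mm10, and its unprocessed pseudogene Cyp21a2-ps lies on the same strand at chr17:34719813-34722252, 79095 bases away. The coding part of Cyp21a1-201 and the pseudogene transcript aligned over 1371 bases, of which 34 differed, so they were 97.5% identical. Of 22 stretches of 60 coding bases, laid end to end from the start codon and aligned without gaps, the one with the most differences is shown first, with the 4 differing bases in capitals, at chr17:34802985-34803044 and chr17:34721051-34721110, both on the minus strand.
Cyp21a1: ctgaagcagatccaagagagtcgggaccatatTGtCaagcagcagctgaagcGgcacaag
Cyp21a2-ps: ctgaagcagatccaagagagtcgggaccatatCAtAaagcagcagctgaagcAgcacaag
The first 60 coding bases, at chr17:34804340-34804399 and chr17:34722193-34722252, were the same in both. They are shown because these bases alone carry no mark of origin, although a longer read also covers bases beyond them.
Cyp21a1: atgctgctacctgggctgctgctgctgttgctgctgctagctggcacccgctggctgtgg
Cyp21a2-ps: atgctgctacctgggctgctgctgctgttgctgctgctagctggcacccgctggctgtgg

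The clearest difference between the copies was a missing exon. Of the 90 bases of Cyp21a1 exon 2 (chr17:34804044-34804133, minus strand), 1 base aligned to the pseudogene transcript, so a read across this exon points to Cyp21a1.
Cyp21a1 exon 2: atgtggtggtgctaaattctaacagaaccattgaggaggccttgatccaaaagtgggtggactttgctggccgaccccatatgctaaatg
Counted from 1 at the A of the Cyp21a1 start codon, with the Cyp21a1 base first, the substitution C931T was the only one that made a stop codon of the pseudogene in the reading frame of Cyp21a1. The end of the coding part, which the stretches above leave out in part, held 7 of the 34 differences between G1437A and T1458A. Over all windows of 100 bases, the length that the first quantification's effective lengths imply, 115 of 1959 in Cyp21a1-201 (5.87%) also occurred in Cyp21a2-ps. The same 115 were 8.96% of the 1284 windows of Cyp21a2-ps. No window of the other 7 genes occurred in another gene.

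Cyb5r3 is shown because its annotated transcripts differ at the start of the protein. The gene lies on the minus strand at chr15:83153494-83172592. Transcript Cyb5r3-201 begins 2415 bases upstream of Cyb5r3-203, and its coding sequence has 69 bases (23 codons) before the start codon of Cyb5r3-203. The 120 bases below run from the first start codon across at least 1 intron (chr15:83166108-83172132, minus strand), with both start codons in capitals.
Cyb5r3-201: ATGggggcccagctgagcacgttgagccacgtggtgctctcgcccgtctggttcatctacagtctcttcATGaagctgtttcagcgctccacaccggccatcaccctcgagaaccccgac
In mammals a longer form of this reductase is anchored in membranes of the reticulum and mitochondria, and a shorter soluble form is known from red blood cells. Which protein form each RNA gave was not measured.

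Pgrmc1 (plus strand, chrX:36598206-36606079) and Pgrmc2 (minus strand, chr3:41066326-41083046) were 68.0% identical over 566 aligned coding bases. Their most similar 60-base coding stretch had 52 identical and 8 different bases, with the different ones in capitals. It spans an intron in each gene, at chrX:36598575-36602140 and chr3:41070416-41082634.
Pgrmc1: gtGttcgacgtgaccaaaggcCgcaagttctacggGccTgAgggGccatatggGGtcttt
Pgrmc2: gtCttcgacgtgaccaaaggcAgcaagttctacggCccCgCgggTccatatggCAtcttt
Cyb5a and Cyb5b were 62.3% identical over 390 aligned coding bases. Neither pair shared a window of 100 bases.

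The hydroxylases stood at opposite ends of the set. Cyp21a1 had 1417 TPM in replicate 1 and 1517 in replicate 2 (1467 ± 70.8, SD, n = 2) and held 76.3% and 76.5% of the summed level of the 8 genes. It ranked 6th by mean TPM among nuclear protein-coding genes. Its 80495 and 89679 expected counts set a narrow counting error. The deposited intervals go with the posterior mean TPM, which was 1386 and 1485. They ran from 1374 to 1397 in replicate 1 and from 1473.5 to 1497 in replicate 2, below the TPM in both.

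Cyp17a1 (minus strand, chr19:46667165-46673172) had 0.40 TPM in replicate 1 and 0.33 in replicate 2 (0.365 ± 0.0495, n = 2), from 21 and 16 expected counts. The level was below the 1 TPM used here as detected. In a second quantification by the authors, whose TPM ran higher in general, Cyp17a1 had 0.73 and 0.95 TPM. Cyp17a1 was there 1.83 and 2.87 times its first value, where the median detected protein-coding gene was 1.83 and 1.80 times. The same cutoff is therefore not an equal threshold for Cyp17a1 in the 2 quantifications. Its posterior mean TPM was 0.72 and 0.55, and the deposited interval in replicate 1, from 0.35 to 1.16 TPM, crossed the cutoff. Cyp21a1 exceeded Cyp17a1 by a log2 ratio that, after adding 0.01 TPM to each, was 11.75 in replicate 1 and 12.12 in replicate 2 (11.94 ± 0.26, n = 2). It was 11.13 with the posterior mean TPM and 10.07 when 1 TPM was added to each gene, so its size rests on how the few Cyp17a1 counts are treated. A list of 7 ovary and testis genes was also low, with a summed level of 3.44 TPM in replicate 1 and 3.43 in replicate 2. Only Insl3 of these 7 reached 1 TPM in both, at 2.44 and 2.61 TPM, which is above Cyp17a1. Cyp19a1 and Hsd17b3 were each at 0 in 1 replicate.

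Of the 8 genes, 7 were detected at 1 TPM or more in both replicates, where 59.3% of protein-coding genes and 26.4% of all annotated genes were. Cyp17a1 was the exception. The 6 electron and heme partners lay between the hydroxylases, at 15.7 to 126 TPM, against a median of 12.4 TPM over the protein-coding genes detected.

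**Figure D1:**
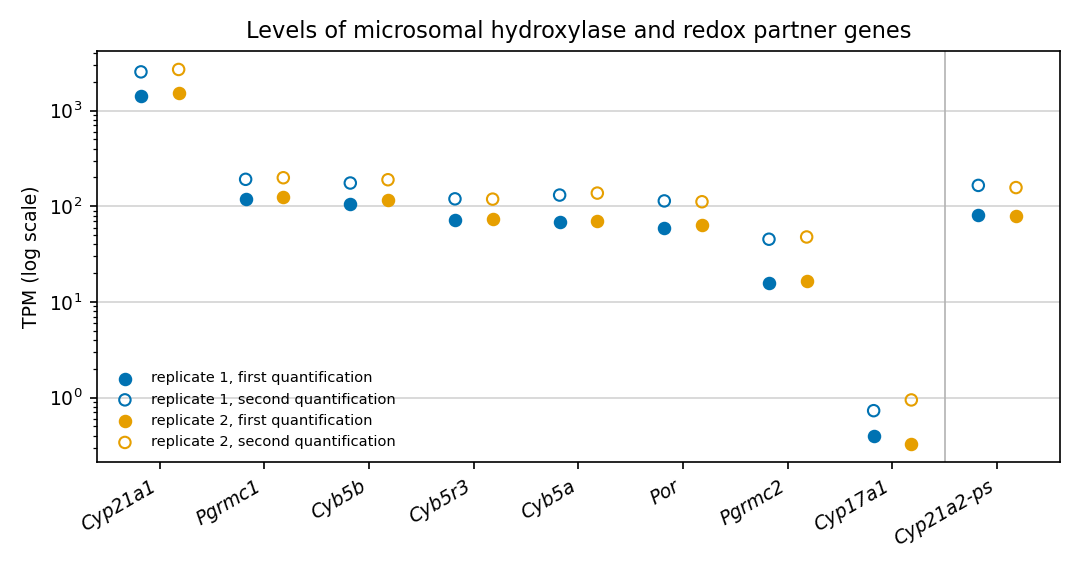
Level of each gene in TPM (log axis), with replicate 1 left of replicate 2. Filled points are the first quantification and open points the second, and Cyp21a2-ps stands right of the line as the copy of Cyp21a1. Cyp21a1 is at 1417 TPM or more and Cyp17a1 below 1 TPM in each library and quantification.

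Por (plus strand, chr5:135670033-135735326), the reductase that every microsomal P450 shares, had 59.8 TPM in replicate 1 and 63.4 in replicate 2 (61.6 ± 2.52, n = 2). Its level was far below that of the enzyme it serves. The log2 ratio of Cyp21a1 to Por was 4.57 in replicate 1 and 4.58 in replicate 2 (4.57 ± 0.01, n = 2), and the summed hydroxylase level was 23.7 and 23.9 times that of Por. In the mitochondrial chain the hydroxylases Cyp11a1, Cyp11b1 and Cyp11b2 summed to 6.72 and 6.93 times the level of Fdxr, the flavoprotein that takes the place of Por there. RNA levels do not measure the ratio of the proteins.

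The cytochromes b5 were more abundant than either reductase when summed. Cyb5b (plus strand, chr8:107150640-107187471), known as the form of the outer mitochondrial membrane, had 106 TPM in replicate 1 and 116 in replicate 2 (111 ± 6.79, n = 2). Cyb5a (plus strand, chr18:84838704-84879871), the form of the reticulum that stimulates the lyase step of CYP17A1, had 67.8 and 70.5 TPM (69.2 ± 1.93, n = 2). Cyb5a was therefore below Cyb5b in both libraries, with a log2 ratio of -0.68 ± 0.05 (n = 2).

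Cyb5r3, which reduces cytochrome b5 with NADH, had 71.8 TPM in replicate 1 and 73.3 in replicate 2 (72.5 ± 1.06, n = 2). Cyb5a plus Cyb5b came to 2.42 and 2.54 times the level of Cyb5r3, and to 2.91 and 2.94 times that of Por. Por was slightly below Cyb5r3, with a log2 ratio of -0.24 ± 0.04 (n = 2), and Cyb5a slightly above Por, at 0.17 ± 0.02 (n = 2).

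The Pgrmc proteins share a cytochrome b5-like heme domain, and PGRMC1 is known to bind P450 enzymes. Pgrmc1 was the most abundant of the partners, at 120 TPM in replicate 1 and 126 in replicate 2 (123 ± 4.64, n = 2). Pgrmc2, whose protein is known as a heme chaperone, had 15.7 and 16.4 TPM (16.0 ± 0.54, n = 2). The log2 ratio of Pgrmc1 to Pgrmc2 was 2.93 and 2.94 (2.94 ± 0.01, n = 2).

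By mean level the order was Cyp21a1, Pgrmc1, Cyb5b, Cyb5r3, Cyb5a, Por, Pgrmc2 and Cyp17a1. No neighbours in this order overlapped between the replicates, but with 2 libraries that separation is weak for the close neighbours. Pgrmc1 averaged 1.11 times Cyb5b, Cyb5r3 1.05 times Cyb5a, and Cyb5a 1.12 times Por. The log2 ratio of Cyb5r3 to Cyb5a was 0.07 ± 0.02 (n = 2) here and -0.17 ± 0.06 (n = 2) in the second quantification, so their order was not settled.

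The second quantification, made by the authors from the read files, gave higher TPM for every member. Its TPM was 1.83 and 1.80 times that of the first at the median protein-coding gene in replicates 1 and 2. Cyp21a1 had 2541 and 2693 TPM there, 1.79 and 1.78 times the first value, which is close to that median. Pgrmc2 was the member that moved most in both libraries, to 45.3 and 47.8 TPM, 2.89 and 2.91 times its first value. Pgrmc1 therefore exceeded Pgrmc2 by a smaller log2 ratio there, 2.07 ± 0.02 (n = 2).

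The replicates were close for all members with enough counts. Of the 7 members whose counts averaged 100 or more, 0 differed 2-fold between the replicates, where 3.21% of all 13734 such genes did. At 1.5-fold the count was again 0 of 7, against 5.52% of genes. No test stands behind these counts, since each side was 1 library. The median size of the log2 difference was 0.11 over the 7 members and 0.11 over all genes, so the members' spread was near the background.

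All 7 were lower in replicate 1 by TMM scaling, where 55.3% of genes were lower. The largest differences were those of Cyb5b, whose log2 ratio (replicate 1 over replicate 2) was -0.17, with a 95% counting interval of -0.20 to -0.14, and Cyp21a1, at -0.15 (-0.17 to -0.14). The direction depended on the scaling for the smallest differences. With spike-in totals 5 of 7 were lower in replicate 1 (34.3% of genes), Cyb5r3 then being at 0.02 and Pgrmc2 at 0.04. With deposited TPM 7 of 7 were lower, against 42.6% of genes.

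Of the 7 adrenal cortex markers, 6 were also lower in replicate 1. Over the 7 the median log2 ratio was -0.14, and their summed level was 4751 TPM in replicate 1 and 5232 in replicate 2. The exception was Cyp11b2, the aldosterone synthase, which was higher in replicate 1 (99.6 TPM, against 64.6 TPM in replicate 2, log2 ratio 0.58). The chromaffin markers were also lower in replicate 1, with a median of -0.29 over 5 genes. The differences in pancreas, kidney, liver and muscle markers stand beside these values, and their part in the members' differences was not tested. Cyp17a1 had a log2 ratio of 0.39 on its few counts, and its interval of -0.61 to 1.43 spans 0.

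**Figure D2:**
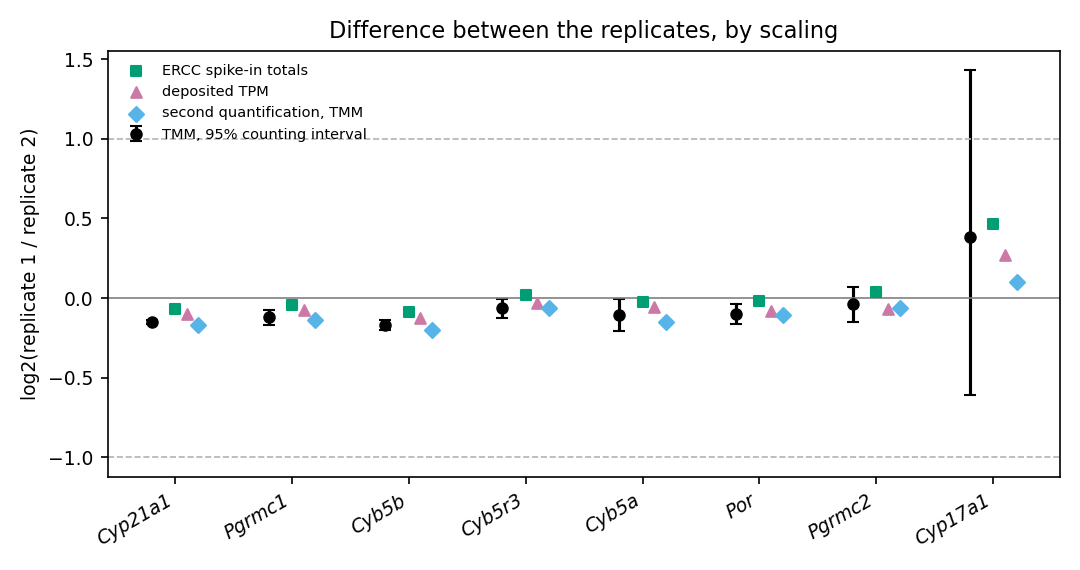
log2 ratio of replicate 1 over replicate 2 for each gene. Black points are TMM-scaled counts with 95% counting intervals, the coloured points other scalings or tables, and the dashed lines mark 2-fold. All genes but Cyp17a1 lie between -0.20 and 0.04, and the interval of Cyp17a1 spans 0.

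The pseudogene was given a small part of the Cyp21 reads. Cyp21a2-ps was assigned 80.9 TPM in replicate 1 and 78.5 in replicate 2 (79.7 ± 1.70, n = 2). It held 3.82% and 3.46% of the counts given to the pair. The pseudogene did not share the difference of Cyp21a1 between the replicates: its log2 ratio had an interval of -0.07 to 0.07 around a value near 0, against -0.15 for Cyp21a1. Its level was above that of Por, and the summed level of both copies was 1498 and 1595 TPM. Which reads were placed by the shared windows was not tested. Nor was the effect of CAST/EiJ bases on the share given to each copy.

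Leading transcripts were the protein-coding ones for all 7 detected members. Cyp21a1-201 held 91.6% and 92.4% of the gene's TPM in replicates 1 and 2, and the retained-intron transcript Cyp21a1-203 held 7.05% and 6.56%. Por-201 held 77.2% and 77.4%, with the rest spread over 8 other transcripts of which 3 are annotated as retained introns. Cyb5b-201 held all of Cyb5b, and Pgrmc1 has 1 annotated transcript. The minor Por transcripts depended on the quantification. In the first, the replicates differed for Por-206, with 0 and 53 expected counts, and Por-202, with 145 and 40.8. In the second, Por-206 had 0 and 3.37 estimated counts, and Por-202 turned direction with 24.0 and 34.9. Por-208 differed most there in number of counts among the minor transcripts, with 75.8 and 148, and Por-204 had 50.4 and 22.7. Only 11 of the 574 windows of Por-206 belong to it alone.

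The share of the leading transcript also depended on the quantification for Cyb5r3, Cyb5a and Pgrmc2. Cyb5r3-203 held 79.6% and 82.8% of Cyb5r3 in the first quantification but 33.96% and 36.3% in the second. The transcript with the longer coding start, Cyb5r3-201, held 18.8% and 16.1% in the first and 63.8% and 62.6% in the second. The replicates were alike within each quantification, and the quantifications named different leaders. Cyb5r3-203 has 40 windows of 1883 that no other transcript holds, and Cyb5r3-201 has 480 of 2323. Why the quantifications differ was not tested. With different leaders in the quantifications, these data do not settle which start is the more used.

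Cyb5a-204 held 88.3% and 90.5% of Cyb5a in the first quantification, against 63.4% in each replicate in the second. There Cyb5a-205, a second protein-coding transcript, had 29.9% and 31.2%. Pgrmc2-201 held 96.9% and 91.0% in the first quantification and 57.5% and 52.9% in the second, where the short retained-intron transcript Pgrmc2-202 took 42.5% and 47.1%. Pgrmc2-202 held 109 and 132 estimated counts there and 7.41 and 23.4 expected counts in the first, so the higher Pgrmc2 TPM stood beside more counts on a transcript of 596 bases. Cyp17a1 had too few counts for a share. Cyp17a1-201 was given 100% of the gene in replicate 1 and 6.06% in replicate 2, out of 21 and 16 counts.

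**Figure D3:**
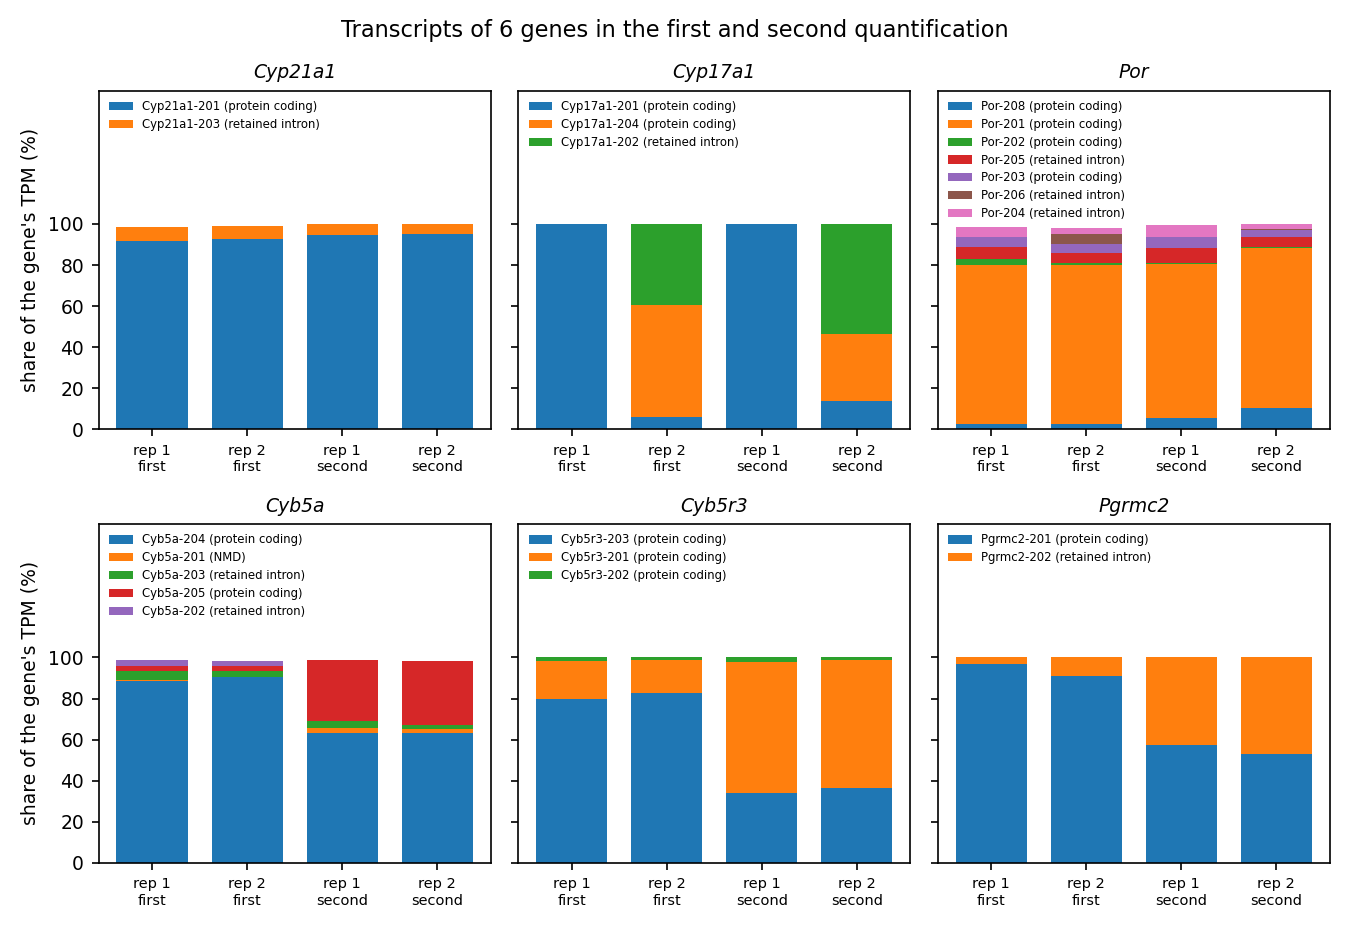
Share of each gene's TPM (percent) by transcript, for replicates 1 and 2 in the first and the second quantification. Transcripts at 2% or more in any column are drawn, and NMD marks transcripts annotated for nonsense-mediated decay. Cyb5r3 changes its leading transcript between the quantifications, and Pgrmc2-202 and Cyb5a-205 are larger in the second.

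Overlapping genes carried few reads. Tnxa, a pseudogene on the opposite strand, covers 276 bases of Cyp21a1 and had 0.59 TPM in replicate 1 and 0.82 in replicate 2. Gm16061 overlaps Por with 5.06 and 1.29 counts, and Gm49463 overlaps Cyb5r3 with 49 counts in each. Gm43091 over Por and Gm16146 over Cyb5a were at 0 in both replicates. The labels name a directional kit, but no source used here gives the strand setting of the counting. Porcn, whose symbol begins like that of Por, had 2.72 and 2.42 TPM and is a separate gene on the X chromosome.

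The other P450 and oxygenase genes that depend on Por were mostly low. Of 16 listed, 13 were at 1 TPM or more in both replicates, and 0 of the 13 with enough counts differed 2-fold. All 16 together summed to 190 TPM in replicate 1 and 189 in replicate 2. Over all genes, 59.3% of protein-coding genes reached 1 TPM in both, and 3.21% of genes with enough counts differed 2-fold. Those shares apply to the lists below as well, so 0 past 2-fold in a short list is near the background. Cyp2f2, a P450 best known from airway club cells, led with 57.4 and 58.0 TPM. The heme oxygenase Hmox2 followed with 36.8 and 34.7 TPM, then the P450 Cyp2d22 with 18.6 and 16.3 TPM and the inducible heme oxygenase Hmox1 with 13.5 and 18.2 TPM. No listed user of Por exceeded 58.0 TPM in either replicate, against 1417 and 1517 TPM for Cyp21a1.

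The desaturases and hydroxylases that draw on cytochrome b5 ranged widely, and the highest were above each listed user of Por. Of 9 listed, 7 were detected, with 0 of 8 past 2-fold. All 9 together summed to 443 TPM in replicate 1 and 450 in replicate 2. The stearoyl desaturase Scd2 had 147 and 144 TPM, and the fatty acid desaturase Fads2 had 138 and 149 TPM. Fads1 had 80.2 and 78.6 TPM and Scd1 43.2 and 47.2 TPM. The rest of the list was lower, with means from 15.7 TPM (Msmo1) down to 0.23 TPM (Fa2h). Scd2 and Fads2 were each above Cyb5a, Cyb5b and Cyb5r3 in both replicates.

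All 7 genes listed around NADPH supply in the reticulum and cytosol, Slc37a4 and Hsd11b1 among them, were detected, with 0 past 2-fold. The isocitrate dehydrogenase Idh1 had 137 and 148 TPM and the malic enzyme Me1 121 and 130 TPM. The pentose phosphate enzyme Pgd had 68.8 and 64.8 TPM, and H6pd, which makes NADPH inside the reticulum, had 38.6 and 40.9 TPM. Idh1, Me1 and Pgd were each above Por in both libraries, and H6pd was below it.

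The 7 genes listed as other cytochrome b5 reductases and b5 domain genes were each below Cyb5a, Cyb5b and Cyb5r3 in both replicates. Of these 7, 6 were detected and 0 of 6 differed 2-fold. Nenf, a secreted relative of Pgrmc with a b5-like domain, led with 45.4 and 43.5 TPM. Cyb5d1, Cyb5r4 and Cyb5r1 followed at 16.0 ± 1.46, 14.6 ± 0.01 and 10.9 ± 0.84 TPM (SD, n = 2 each), and Cyb5r2 was at 0.03 TPM in both replicates. Cyb5r3 was thus the most abundant of the listed cytochrome b5 reductases in both replicates.

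Among membrane progestin receptors and known or proposed partners of Pgrmc, all 12 listed genes were detected. The RNA-binding protein gene Serbp1 led with 138 and 141 TPM, followed by the ferrochelatase Fech with 59.3 and 51.4 TPM, Nenf, and the sterol sensor Scap with 41.6 and 41.9 TPM. Of the 11 with enough counts, Paqr5, a membrane progestin receptor, was the only one past 2-fold, with 3.52 TPM in replicate 1 and 1.21 in replicate 2 and a log2 ratio of 1.74 by TMM. The kidney and pancreas markers were higher in the same library, and their part in this difference was not tested.

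The mitochondrial carriers were at higher levels than Por. Cyp11a1, which cleaves the cholesterol side chain, had 824 TPM in replicate 1 and 912 in replicate 2, and Cyp11b1, which completes corticosterone, had 585 and 612 TPM. The carrier genes Fdx1 and Fdxr had 304 and 298 TPM and 225 and 229 TPM. All 5 listed genes were detected and 0 of 5 differed 2-fold. Both Fdx1 and Fdxr were above Por in each replicate, while Cyp21a1 was above each mitochondrial hydroxylase.

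The relatives of Por in the diflavin family were low. The 5 symbols matched 6 genes, since Ndor1 names a pair of gene records, and 3 of the 6 were detected. The higher Ndor1 record had 17.4 and 11.6 TPM, the methionine synthase reductase Mtrr 9.29 and 10.5 TPM, the endothelial nitric oxide synthase Nos3 4.12 and 3.90 TPM, and Nos2 0.98 and 0.85 TPM. Of the 5 with enough counts, 0 differed 2-fold, and each was below Por in both libraries.

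**Figure D4:**
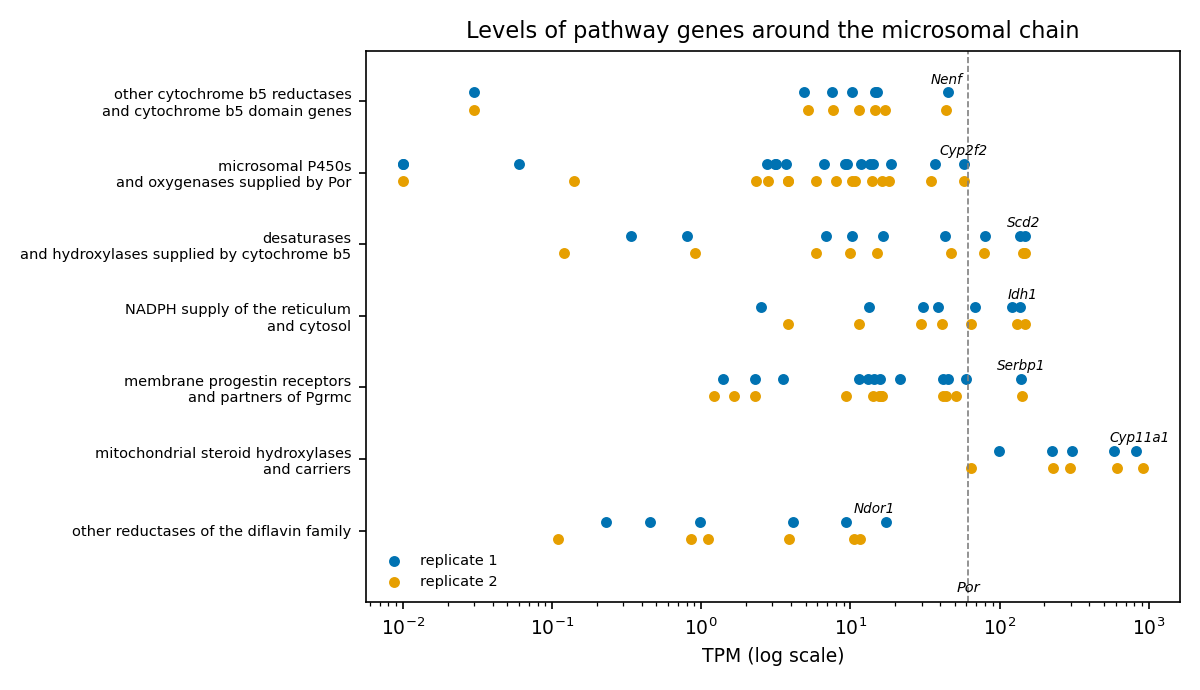
Level in TPM (log axis) of each gene of 7 pathway lists, with replicate 1 above replicate 2 in each row and the gene with the highest mean named. The dashed line is the mean of Por (61.6 TPM), and genes at 0 in a replicate are not drawn there. The mitochondrial list is the only one whose genes all lie to the right of that line.

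The protein-coding genes closest in level over the 2 libraries were found by the distance in log2(TPM + 0.01). For Cyp21a1 these were mt-Nd2 (1498 and 1488 TPM, distance 0.08) and mt-Nd3 (1216 and 1416 TPM, distance 0.24), both encoded by the mitochondrial genome. For Por they were Tspo (59.9 and 63.6 TPM, distance 0.003) and the chaperone gene Hspa4 (60.01 and 62.9 TPM, distance 0.01), out of 22028 protein-coding genes. With 2 samples this is a likeness of level only.

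RefSeq promoter windows (GRCm38.p6, 250 bases before to 50 after the RefSeq start) were at hand for 4 members, Por, Cyb5b, Pgrmc1 and Pgrmc2. They are shown as the members with an entry in that table. For Por the RefSeq start is chr5:135689145, downstream of the first base of its leading transcript Por-201 at chr5:135689036. Part of the Por window therefore lies inside the span of that transcript. Their GC content was 67.3%, 60.7%, 69% and 69.3%, against a median of 52.7% over 32851 promoters, and they held 24 to 27 CG pairs against a median of 7. The motifs searched on both strands were the GC box GGGCGG (in 35.7% of all promoters), CCAAT (37.4%), TATAAA (13.6%) and AAGGTCA, a motif of the steroidogenic factor NR5A1 (4.72%), and none of the matches shown overlapped another. Capitals mark the matches, which read as CCGCCC or ATTGG on the opposite strand.
Por, chr5:135688895-135689194, plus strand: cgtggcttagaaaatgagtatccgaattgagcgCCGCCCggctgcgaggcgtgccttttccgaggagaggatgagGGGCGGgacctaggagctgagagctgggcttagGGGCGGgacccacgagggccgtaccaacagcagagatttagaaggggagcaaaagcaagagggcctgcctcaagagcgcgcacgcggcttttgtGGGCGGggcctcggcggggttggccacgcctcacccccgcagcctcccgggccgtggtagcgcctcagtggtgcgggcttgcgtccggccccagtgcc
Cyb5b, chr8:107150411-107150710, plus strand: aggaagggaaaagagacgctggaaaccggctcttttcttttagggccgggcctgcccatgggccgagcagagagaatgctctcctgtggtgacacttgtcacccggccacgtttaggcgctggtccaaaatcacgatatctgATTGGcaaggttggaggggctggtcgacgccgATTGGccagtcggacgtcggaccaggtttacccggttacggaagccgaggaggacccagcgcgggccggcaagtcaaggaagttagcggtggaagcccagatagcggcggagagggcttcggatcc
Pgrmc1, chrX:36597943-36598242, plus strand: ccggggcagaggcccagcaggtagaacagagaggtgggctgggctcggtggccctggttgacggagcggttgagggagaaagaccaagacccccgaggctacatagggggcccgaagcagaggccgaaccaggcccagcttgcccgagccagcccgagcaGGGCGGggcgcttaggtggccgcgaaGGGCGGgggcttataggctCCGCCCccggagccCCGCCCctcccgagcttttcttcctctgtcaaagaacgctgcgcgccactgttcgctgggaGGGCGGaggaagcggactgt
Pgrmc2, chr3:41082997-41083296, minus strand: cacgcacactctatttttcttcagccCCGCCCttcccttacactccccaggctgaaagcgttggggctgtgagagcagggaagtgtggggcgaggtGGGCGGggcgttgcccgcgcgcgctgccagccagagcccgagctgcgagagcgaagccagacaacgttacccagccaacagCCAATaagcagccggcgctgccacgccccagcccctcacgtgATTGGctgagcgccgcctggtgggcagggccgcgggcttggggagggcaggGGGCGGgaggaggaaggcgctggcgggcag
The GC box occurred 4 times in the Por window, 5 times in that of Pgrmc1, 3 times in that of Pgrmc2 and 0 times in that of Cyb5b. CCAAT occurred 2 times each in the windows of Cyb5b and Pgrmc2. TATAAA and AAGGTCA were in none of these 4 windows. A match of letters is not a measured binding site, and its bearing on the level of a gene was not tested.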

How the data were processed

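Values were used per library, as 1 group of 2 replicates. Per the file headers, the deposited gene and transcript tables give expected counts, TPM, a posterior mean TPM with interval bounds (a score with no confidence level stated) and, per transcript, its percent of the gene. Per the authors' notes these were made from transcriptome alignments (mm10, annotation M21). The second quantification is another deposited table per transcript, built from read files, with estimated counts and TPM, and was summed to genes. No source used here names the aligner or quantifier. Depth per library and the limit a count of 0 allows are given above.

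Counts were scaled by TMM (edgeR 4.0.16, R 4.3.3). The log2 ratio of replicate 1 over replicate 2 used a prior of 0.5 counts, and its 95% interval is exact (Clopper-Pearson) and covers counting error only. Other scalings used DESeq2 1.42.0 size factors, total counts, spike-in totals and TPM. The ratio was also run on simulated counts with counting error only. There 200 of 200 changed genes and 0 of 13534 unchanged genes were called. The simulation had no other spread between libraries, so it does not show how the rule behaves with such spread. Transcript windows, alignments (Biopython 1.88) and promoters were read from GENCODE M21 and RefSeq. The rows named by neither gene nor spike-in held 4.61e-05% and 6.07e-06% of counts.

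Named genes were all members, the 4 highest of each of 7 pathway lists plus any past 2-fold, the 2 nearest genes of Cyp21a1 and Por, overlapping genes and the copy. Members and lists were chosen with earlier results of these data known. Macrophage, fibroblast, blood and fetal cortex markers were also read. Their median log2 ratios were -0.41, -0.29, 0.46 and -0.02.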

Additional observations from a re-analysis of the deposited data

How the results depend on the processing

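The counts of members detected (7) and of members differing 2-fold (0) were the same under every alternative run, including 5 TPM, 1.5-fold, no filter on counts, the other scalings and the second quantification. The second quantification turned the log2 ratio of Cyb5r3 to Cyb5a to -0.17. It moved that of Cyp21a1 to Cyp17a1 to 11.60, Cyp21a1 to Por to 4.54, Por to Cyb5r3 to -0.081, Cyb5a to Cyb5b to -0.44, Pgrmc1 to Pgrmc2 to 2.07 and Cyb5a to Por to 0.25. Posterior mean TPM moved Cyp21a1 to Cyp17a1 to 11.13, Cyp21a1 to Por to 4.55 and Pgrmc1 to Pgrmc2 to 2.92. A pseudocount of 1 TPM moved the same 3 to 10.07, 4.55 and 2.86. Spike-in totals turned the replicate log2 ratio of Cyb5r3 to 0.017 and moved 4 more of the 8 replicate ratios outside their counting intervals. Deposited TPM moved 2, total counts 2, the second quantification 1 and DESeq2 size factors 0. The ratio of Pgrmc2 was 0.04 with spike-in totals and 0.005 with total counts, inside its interval of -0.15 to 0.07. The causes were not tested.

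Leaving out a replicate gave 11.75 to 12.12 for Cyp21a1 to Cyp17a1, 4.57 to 4.58 for Cyp21a1 to Por, -0.26 to -0.21 for Por to Cyb5r3, -0.71 to -0.65 for Cyb5a to Cyb5b, 0.06 to 0.08 for Cyb5r3 to Cyb5a, 2.93 to 2.94 for Pgrmc1 to Pgrmc2 and 0.15 to 0.18 for Cyb5a to Por. All 8 levels moved by more than 1 SD in the second quantification, and 5 of 8 leading-transcript shares did. No paired analysis was possible because the labels give 1 group. Depth limits Cyp17a1 alone among the members, and the number of libraries limits every value.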
